A study of Mus musculus with 12 samples.

Results

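The 10 macrophage and monocyte genes Adgre1, Csf1r, Cd68, Spi1, Irf5, Cd86, Clec12a, Lyz2, Ptafr and Emilin2 were taken by symbol from the gene tables of sorted mouse glomerular endothelial cells (GEC), which list 19564 genes in all, and each of the 10 was listed in both tables. Mice on a C57BL/6 background, 4 months old, carried a Tek-Cre that switches on the red reporter tdTomato (tdT), and cells freed from sieved glomeruli were sorted by tdT brightness into a dim and a bright subpopulation. WT mice were compared with AS mice, the Alport syndrome model, which lack Col4a5, the gene of a type IV collagen chain of the glomerular basement membrane (genotype Col4a5 -/-). Each of 3 mice per genotype gave 1 dim and 1 bright library of poly-A RNA, so that the 12 libraries formed the 4 groups WT-dim, AS-dim, WT-bright and AS-bright with 3 mice each. Every group carried both the Cre and the reporter. The labels call all 12 samples glomerular endothelial cells. In its work on WT mice, the paper also reports flow cytometry of the sorted dim and bright cells. Nearly all stained for the endothelial protein Ehd3, and the podocyte protein WT1 was virtually absent. Tek-Cre is known to be active also in the lineage that gives rise to blood cells, and the methods describe no gate against leukocytes.

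Monocytes are blood leukocytes that enter tissues and can become macrophages, which engulf particles, degrade them in lysosomes and present antigen. The lineage depends on the growth factor receptor Csf1r and on the transcription factor Spi1 (PU.1). In the kidney, macrophages reside mostly between the tubules, and monocytes patrol and enter glomerular capillaries in disease.

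Counts on genes per library were 11440169 to 12624608 in WT-dim, 11946524 to 13923267 in AS-dim, 13674045 to 15007638 in WT-bright and 14527358 to 15074909 in AS-bright. Levels are given as CPM, counts scaled to a common library size by edgeR's TMM method over all 12 libraries, and levels of the members were ranked against each other as RPKM, the same value per kilobase of merged exons. Sums over marker lists are in CPM scaled by TMM within the dim or the bright libraries alone, and were compared between libraries. Dim and bright sums are thus on separate scales. The mean of Ptprc in AS-dim, for example, was 1341 CPM on the scale of the dim libraries and 1372 CPM on that of all 12. Col4a5, the targeted gene, had 37.1 to 73.9 CPM in WT-dim and 1.36 to 3.60 CPM in AS-dim. Podocyte, proximal tubule and distal nephron markers were lower in AS-dim as well (median log2 fold changes -1.37, -4.20 and -2.96). Their part in the drop of Col4a5 was not tested. The bright libraries had little Col4a5 in either genotype, with a log2 fold change of -0.60 for AS over WT (edgeR adjusted p = 0.495), so that this gene leaves their genotype unchecked. Endothelial markers (14 genes, Tek, Kdr and Cdh5 among them) summed to 11817 to 18914 CPM in the bright libraries, but to 725 to 1388 CPM in WT-dim and 223 to 318 CPM in AS-dim. Leukocyte markers (12 genes, Ptprc, which encodes CD45, among them) summed to 9430 to 16473 CPM in the dim and to 89.2 to 197 CPM in the bright libraries. The dim libraries thus held more leukocyte and less endothelial marker RNA than the bright libraries, although the labels call both endothelial cells. In these bulk samples, fewer cells of a type and less RNA per cell cannot be told apart. The first mouse of the WT group stood apart by its proximal tubule markers (6447 CPM in its dim library, against 1380 and 1432 CPM in the other WT-dim libraries), and the third by its neutrophil markers (2644 CPM in its dim library, against 573 and 707 CPM). The second AS-dim library had 372 CPM of proximal tubule markers, against 19.1 and 31.9 CPM in the others of its group.

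RefSeq promoter sequences (GRCm38.p6, 250 bases before to 50 after the start) were at hand for 6 of the 10 genes, Cd68, Irf5, Clec12a, Lyz2, Ptafr and Emilin2. Both strands were searched for the letters GAGGAA, the core that PU.1, the product of the member Spi1, is known to bind. Of the 32851 promoters searched, 28.3% held the letters at least once and 4.8% at least 2 times. Among the members, 3 of 7 promoters held them, since Emilin2 has 2 start sites in the table. The 250 bases before the start are printed below for these 3 genes and for Lyz2, the member with the highest level, with matches in capitals and each on the strand of its gene.
Cd68 (chr11:69666171-69666420): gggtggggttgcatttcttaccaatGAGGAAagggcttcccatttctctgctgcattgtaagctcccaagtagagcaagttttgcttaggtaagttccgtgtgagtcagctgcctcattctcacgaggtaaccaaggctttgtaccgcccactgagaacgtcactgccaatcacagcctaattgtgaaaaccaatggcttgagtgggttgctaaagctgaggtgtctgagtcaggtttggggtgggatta
Clec12a (chr6:129349994-129350243): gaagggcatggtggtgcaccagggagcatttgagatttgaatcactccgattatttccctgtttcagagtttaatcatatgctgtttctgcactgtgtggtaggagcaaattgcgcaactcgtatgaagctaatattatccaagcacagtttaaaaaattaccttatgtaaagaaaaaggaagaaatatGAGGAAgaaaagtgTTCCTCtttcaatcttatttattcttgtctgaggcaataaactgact
Ptafr (chr4:132563817-132564066): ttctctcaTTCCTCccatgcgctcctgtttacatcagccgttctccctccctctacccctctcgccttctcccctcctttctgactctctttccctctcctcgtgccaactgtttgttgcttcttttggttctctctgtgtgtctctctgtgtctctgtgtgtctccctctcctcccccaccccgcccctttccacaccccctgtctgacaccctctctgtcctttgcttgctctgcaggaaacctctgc
Lyz2 (chr10:117282273-117282522): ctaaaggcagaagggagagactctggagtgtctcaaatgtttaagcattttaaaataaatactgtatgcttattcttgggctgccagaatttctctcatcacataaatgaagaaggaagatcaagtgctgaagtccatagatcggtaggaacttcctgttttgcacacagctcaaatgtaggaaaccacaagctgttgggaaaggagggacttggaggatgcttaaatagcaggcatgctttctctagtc
The match of Cd68 began 225 bases before the start, and a second, not printed, began 29 bases after it. Clec12a had 2 matches that began 61 and 47 bases before the start, and Ptafr had 1 at 242 bases. No match was found in the windows of Irf5, Lyz2 and Emilin2. A match of letters is a description, and binding was not measured.

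Positions are those of Gencode M21 on GRCm38. All 10 genes are protein-coding. Adgre1 lies on the plus strand at chr17:57358691-57483527, and Emilin2 on the minus strand of the same chromosome at chr17:71252172-71311978. Csf1r lies at chr18:61100598-61132149 (plus), Cd68 at chr11:69664213-69666153 (minus), Spi1 at chr2:91082390-91115756 (plus) and Cd86 at chr16:36603869-36666081 (minus). Irf5 at chr6:29526625-29541871 and Clec12a at chr6:129342691-129365303 share a chromosome and strand (plus). Lyz2 lies at chr10:117277331-117282321 (minus) and Ptafr at chr4:132564067-132582683 (plus). Csf1r shares 873 exon bases with Hmgxb3 and Irf5 shares 411 exon bases with Tnpo3, each on the opposite strand. The strand counted is not given in the sources used here, so that reads of these pairs cannot be told apart. Lyz2 has an adjacent paralog, Lyz1, between which reads may be split.

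In the dim libraries the members differed widely in level. Per length, Lyz2, which encodes the lysozyme of phagocytes, was highest, with 2425 ± 668 RPKM (SD, n = 3) in WT-dim and 4933 ± 835 RPKM in AS-dim, which placed it number 14 of 17793 genes of the dim table with an exon length in WT and number 5 in AS. Ptafr, the receptor of platelet-activating factor, came next with 309 ± 81.3 RPKM in WT-dim and 360 ± 42.8 RPKM in AS-dim. Cd68, a lysosomal glycoprotein whose spread met that of Ptafr in WT-dim, had 141 ± 96.4 and 183 ± 38.5 RPKM, and Clec12a, an inhibitory lectin receptor of myeloid cells, had 69.9 ± 33.0 and 120 ± 16.5 RPKM. In WT-dim, the ranges of mean ± SD of Cd68, Clec12a, Irf5 (54.5 ± 6.66 RPKM) and Cd86 (51.8 ± 4.98 RPKM) overlapped. Spi1 (24.4 ± 8.52 RPKM), Csf1r (24.3 ± 4.59 RPKM) and Emilin2 (18.5 ± 3.27 RPKM) did not differ beyond their spread. Adgre1, which encodes the macrophage surface antigen F4/80, was the lowest member in both dim groups, with 9.25 ± 1.57 RPKM in WT-dim and 20.7 ± 1.94 RPKM in AS-dim.

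**Figure D1:**
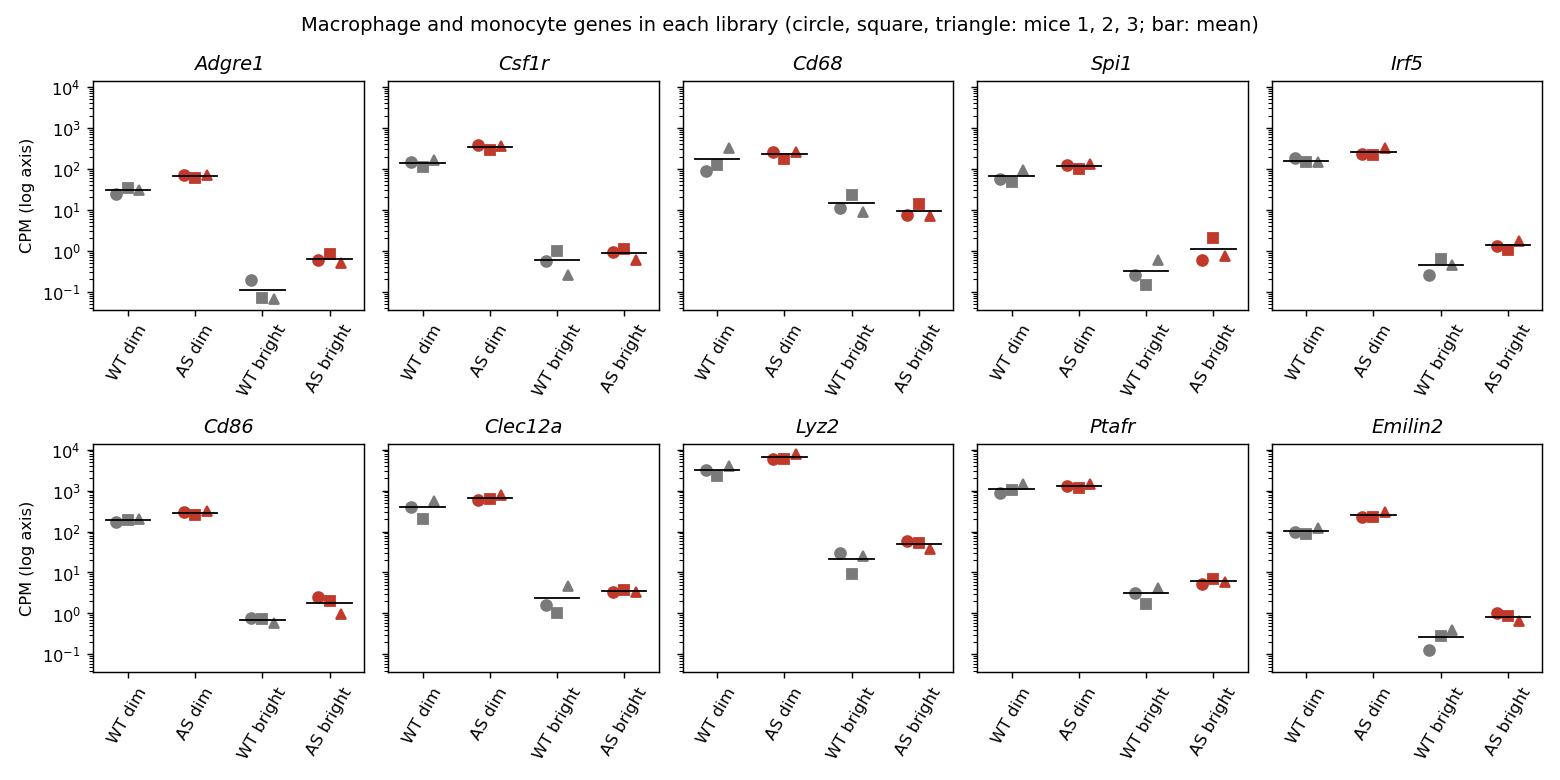
Level of each member in CPM (vertical, log axis) in the 12 libraries, by group (horizontal), with a point per mouse and a bar at the mean of the group. Every dim library lies above every bright library for all 10 genes, and Cd68 has the smallest gap between them.

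AS over WT in the dim cells addresses which genes differ in RNA level between the genotypes in these bulk samples, which hold markers of several cell types. Csf1r, Emilin2, Adgre1 and Lyz2 rose in AS-dim, by 1.99-fold to 2.37-fold, so that 4 of the 10 members passed the test, where 2.21% of all 14637 genes tested passed upward and 6.42% downward. None of the 10 fell. The fold changes of all 10 members were above 0 on the log2 scale, with a median of 0.77, beside -0.02 over all genes. At an unadjusted p under 0.05, 7 members were higher, where 10.3% of all genes were.

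Of the surface receptors of the lineage, Csf1r, the receptor of CSF-1 and IL-34, had 148, 111 and 162 CPM in the 3 WT-dim and 380, 289 and 351 CPM in the 3 AS-dim libraries. Each AS library was above each WT library, and the log2 fold change was 1.24 (standard error 0.21, edgeR adjusted p = 0.0206). Adgre1 had 24.8, 35.0 and 30.1 CPM in WT-dim and 71.1, 59.8 and 70.2 CPM in AS-dim. The groups did not overlap, with a log2 fold change of 1.13 (standard error 0.23, edgeR adjusted p = 0.0277). Cd86, a costimulatory ligand for T cells on antigen-presenting cells, had 171, 190 and 208 CPM in WT-dim and 298, 246 and 318 CPM in AS-dim. Its groups did not overlap, but its log2 fold change of 0.57 (standard error 0.18) missed the threshold (edgeR adjusted p = 0.0826). Clec12a had 388, 203 and 569 CPM in WT-dim and 599, 618 and 765 CPM in AS-dim, apart by a narrow margin, with a log2 fold change of 0.74 (standard error 0.33, edgeR adjusted p = 0.199). Ptafr had 872, 1048 and 1449 CPM in WT-dim and 1303, 1157 and 1468 CPM in AS-dim. These overlapped, and the log2 fold change was 0.19 (standard error 0.21, edgeR adjusted p = 0.613).

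Of the secreted and lysosomal products, Lyz2 had 3200.3, 2308 and 4067 CPM in WT-dim and 5916, 5799 and 7759 CPM in AS-dim. The lowest AS library lay above the highest WT library, and the log2 fold change was 0.99 (standard error 0.23, edgeR adjusted p = 0.0403). The paralog Lyz1 had 151, 165 and 103 counts in WT-dim and 415, 251 and 524 counts in AS-dim, with a log2 fold change of 1.32 (standard error 0.36, edgeR adjusted p = 0.0605). Emilin2, an extracellular matrix glycoprotein, had 96.4, 87.1 and 122 CPM in WT-dim and 223, 225 and 293 CPM in AS-dim. Its groups were well apart, with the highest fold change of the members (log2 fold change 1.25, standard error 0.21, edgeR adjusted p = 0.0206). Cd68 had 90.3, 127 and 316 CPM in WT-dim and 258, 174 and 257 CPM in AS-dim. The third WT mouse had more Cd68 than any AS mouse, and the log2 fold change was 0.34 (standard error 0.42, edgeR adjusted p = 0.664).

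Of the transcription factors, Spi1 had 57.2, 48.2 and 91.7 CPM in WT-dim and 122, 101 and 130 CPM in AS-dim. Irf5, which drives inflammatory cytokine genes in macrophages, had 181, 146 and 148 CPM in WT-dim and 235, 221 and 320 CPM in AS-dim. Neither overlapped between the genotypes, yet neither passed, with log2 fold changes of 0.81 for Spi1 (standard error 0.27, edgeR adjusted p = 0.0999) and 0.67 for Irf5 (standard error 0.21, edgeR adjusted p = 0.0816). In all, 8 of the 10 members had every AS-dim library above every WT-dim library, which held for 15.0% of all genes tested.

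The count of 4 rested on the libraries used, and it ran from 0 to 6 with each dim library left out in turn. Irf5, which is not among the 4, passed in 1 of 15 alternative fits. Without the first WT-dim mouse, or without the second AS-dim mouse, Csf1r and Emilin2 alone passed, without the third WT-dim mouse Cd68 and Spi1 passed as well (6 members), and without the first or the third AS-dim mouse none did, where over all genes 0 and 1 passed. Tubule markers moved with the genotype: the 12 proximal tubule genes summed to 1380 to 6447 CPM in WT-dim and 19.1 to 372 CPM in AS-dim, and with their mean as a covariate no member passed and 1 gene did over all genes. The log2 fold changes in that fit were 1.01 for Csf1r and 0.97 for Emilin2 (edgeR adjusted p = 0.798 and 0.803), and 0.74 for Lyz2 and 0.72 for Adgre1 (edgeR adjusted p = 0.878 and 0.896). They stayed above 0 for 8 of the 10 members.

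**Figure D2:**
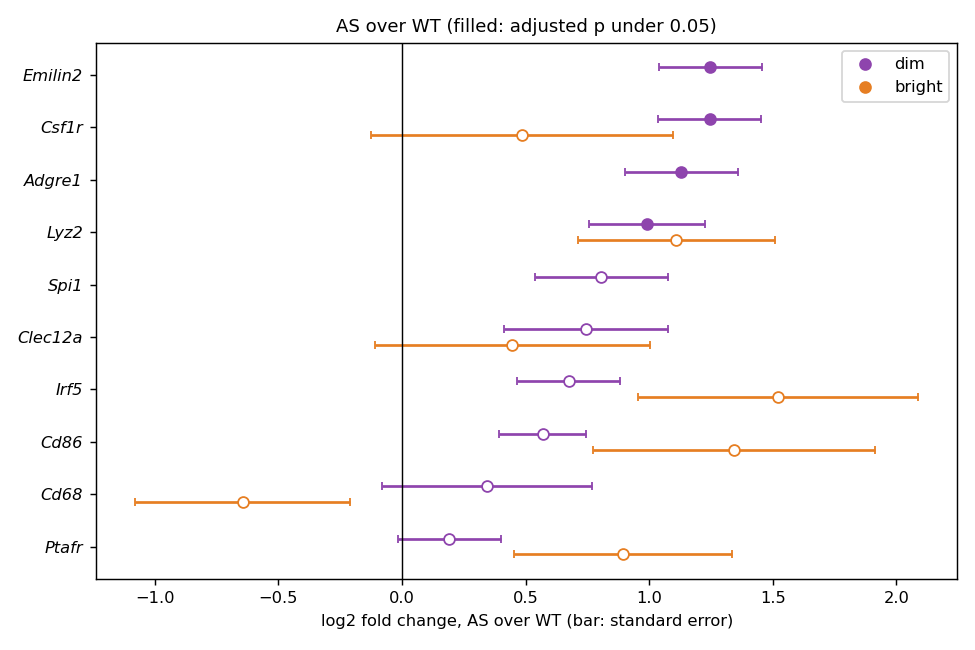
Log2 fold change of AS over WT (horizontal, with the standard error as a bar) for each member in the dim (purple) and bright (orange) libraries, filled where the adjusted p was under 0.05. Filled points are Csf1r, Emilin2, Adgre1 and Lyz2 in the dim cells, and the 3 members without an orange point had too few counts to be tested in the bright cells.

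Leukocyte markers as a whole were also higher in AS-dim. Their sum was 9430 to 15256 CPM in WT-dim and 15571 to 16473 CPM in AS-dim, and all 12 had fold changes above 1, with a median log2 fold change of 0.56, although 0 of the 12 passed (edgeR, 6 at an unadjusted p under 0.05, and 1 in DESeq2). Ptprc had 698, 838 and 1122 CPM in WT-dim and 1364, 1305 and 1447 CPM in AS-dim, with a log2 fold change of 0.60 (standard error 0.19, edgeR adjusted p = 0.091). Set against Ptprc in the same library, Csf1r made up 0.212, 0.132 and 0.144 counts per Ptprc count in WT-dim and 0.278, 0.221 and 0.243 in AS-dim. The ratios of Adgre1 (0.0268 to 0.0417 in WT-dim, 0.0459 to 0.0521 in AS-dim) and Emilin2 (0.104 to 0.138 in WT-dim, 0.163 to 0.203 in AS-dim) did not overlap either and were higher in AS. The ratio of Ptafr was lower in AS, at 0.887 to 1.01 against 1.25 to 1.29 in WT. Of all genes tested in the dim cells, 2.69% had a ratio to Ptprc that was higher in every AS than in every WT library, and 36.3% one that was lower. For the other 6 members, Lyz2 with 2.75 to 4.59 in WT-dim and 4.34 to 5.36 in AS-dim among them, the ratios overlapped. An exact permutation test of 3 against 3 cannot go below p = 0.1, and none was run on these ratios. With the mean of the leukocyte markers as a covariate no member passed, and the log2 fold changes of Csf1r, Emilin2, Adgre1 and Lyz2 were 0.94, 0.90, 1.11 and 0.52 (edgeR adjusted p = 0.195, 0.195, 0.211 and 0.388).

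**Figure D3:**
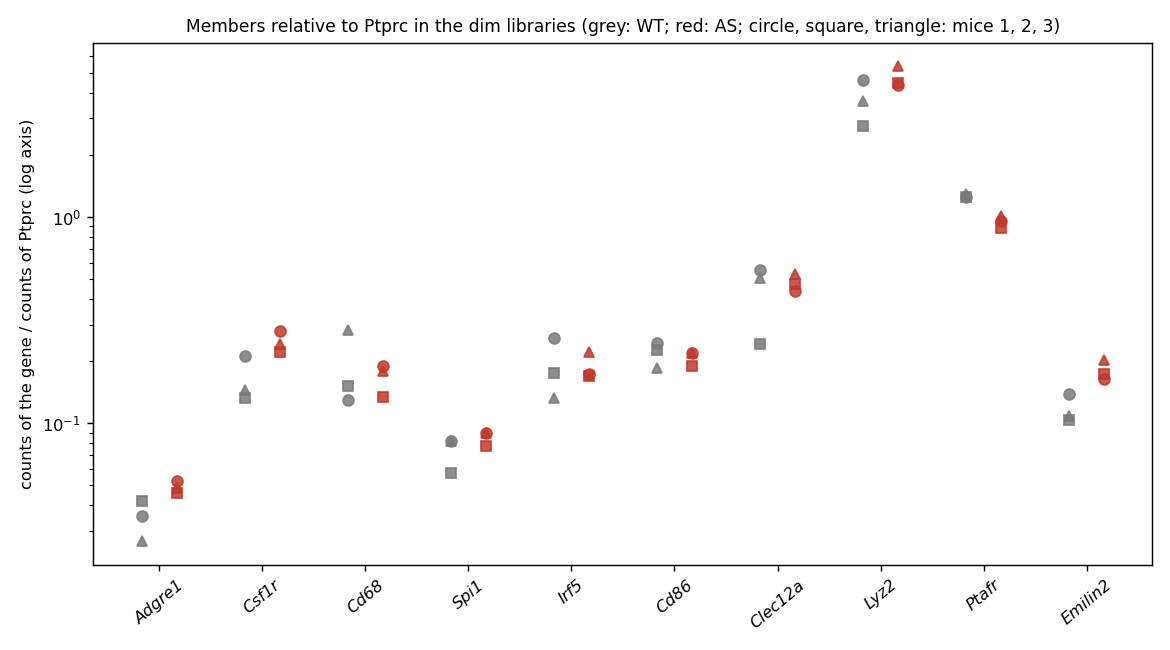
Counts of each member divided by the counts of Ptprc (vertical, log axis) in the 6 dim libraries, WT in grey and AS in red, with a point per mouse. Adgre1, Csf1r and Emilin2 lie higher in every AS mouse than in every WT mouse, and Ptafr lies lower.

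Other genes of the mononuclear phagocyte lineage were described by lists chosen with earlier results of these data known. Of the CSF receptor axis, Plcg2, a phospholipase that acts below Fc and growth factor receptors, rose in AS-dim (log2 fold change 1.02, edgeR adjusted p = 0.024). The kinases Fgr (0.95, edgeR adjusted p = 0.0596) and Lyn (0.72, adjusted p = 0.0816) and the G-CSF receptor Csf3r (-0.55, adjusted p = 0.495) did not pass. Of the resident macrophage genes, 3 of 17 rose and 0 fell, where 2.21% of all genes tested rose and 6.42% fell. They were the high-affinity IgG receptor Fcgr1 (3.28, edgeR adjusted p = 0.021), Aif1, which encodes Iba1 (2.24, adjusted p = 0.0339), and the pore-forming Mpeg1 (1.25, adjusted p = 0.0369). The LPS co-receptor Cd14 had a log2 fold change of 0.48 (edgeR adjusted p = 0.315). At an unadjusted p under 0.05 (edgeR), 6 of the 17 were higher and 2 lower, and in DESeq2 4 rose and 2 fell. The 2 that were lower in edgeR were Maf (-1.02, edgeR adjusted p = 0.0649) and Mertk (-1.16, adjusted p = 0.112). Vsig4, Folr2 and Marco, which mark resident macrophages, were not listed in either table.

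Of the classical monocyte genes, 1 of 7 rose in AS-dim, the chemokine receptor Ccr2, through which monocytes leave the bone marrow (log2 fold change 1.67, edgeR adjusted p = 0.023). F13a1 (1.42, edgeR adjusted p = 0.0819), Vcan (1.13, adjusted p = 0.134) and Plac8 (0.84, adjusted p = 0.167) did not pass. All 7 had fold changes above 0 on the log2 scale, with a median of 1.01. None of the 8 non-classical monocyte genes passed (edgeR, with 2 at an unadjusted p under 0.05 and 0 in DESeq2), Nr4a1, on which these cells depend, among them (0.50, edgeR adjusted p = 0.119). Of the 10 dendritic cell genes none passed (edgeR, with 1 at an unadjusted p under 0.05 and 1 in DESeq2), the integrin Itgax (0.97, edgeR adjusted p = 0.0635) and Irf8 (-0.05, adjusted p = 0.891) among them. Of the myeloid transcription factors, Irf4 (0.91, edgeR adjusted p = 0.0552) and Klf4 (0.53, adjusted p = 0.0799) were just above the threshold. Of the genes of lysosomes and the phagocyte oxidase, 2 of 15 rose, the oxidase subunit Cybb (1.15, edgeR adjusted p = 0.0185) and the cysteine protease Ctss (0.92, adjusted p = 0.0398). Another cathepsin gene, Ctsl, fell (log2 fold change -1.38, edgeR adjusted p = 0.0219).

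Markers of other cell types in the same comparison went in several directions. Of the neutrophil genes 0 of 9 passed (edgeR, where 1 was lower by its p before adjustment, and 1 in DESeq2), and 7 had log2 fold changes below 0, Retnlg (-1.63, edgeR adjusted p = 0.0596) among them. None of 10 T cell, 8 NK cell or 8 B cell genes passed (edgeR, with 2, 0 and 3 at an unadjusted p under 0.05, and 1, 0 and 1 in DESeq2), and their summed levels overlapped between the genotypes. Of the endothelial markers 8 of 13 fell, Emcn (-2.88, edgeR adjusted p = 0.00982), Kdr (-2.76, adjusted p = 0.012) and Tek (-2.6002, adjusted p = 0.0215) among them. Of the podocyte genes 3 of 8 fell, of the proximal tubule genes 6 of 12 and of the distal nephron genes 5 of 7, where 6.42% of all genes tested fell. The part of the endothelial, podocyte and distal nephron markers in the members' rise was not tested, and the values with the proximal tubule markers as a covariate are given above.

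**Figure D4:**
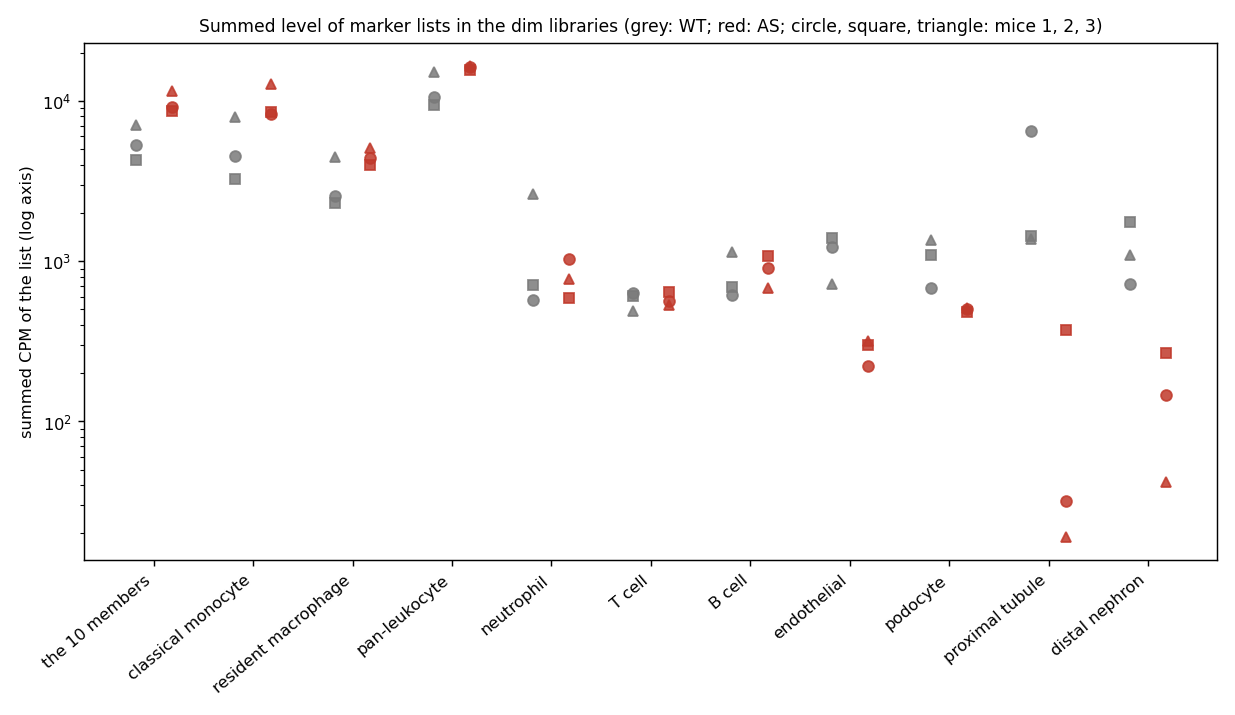
Summed CPM of marker lists (vertical, log axis) in the 6 dim libraries, WT in grey and AS in red, with a point per mouse. The 10 members sum to 4300.1 to 7075 CPM in WT and 8696 to 11477 CPM in AS, while endothelial, podocyte, proximal tubule and distal nephron lists lie lower in every AS mouse than in every WT mouse.

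In the bright cells the members were scarce, and AS over WT rested on few counts. Lyz2 had 464, 126 and 395 counts in the 3 WT-bright and 806, 787 and 515 counts in the 3 AS-bright libraries, and Cd68 had 176, 327 and 132 counts against 105, 209 and 98. Ptafr had 51, 24 and 65 counts in WT-bright and 73, 106 and 81 in AS-bright. Clec12a had 25, 14 and 70 counts in WT-bright and 46, 57 and 45 in AS-bright. The others stayed at 35 counts or fewer in every bright library. Of the 7 members with enough counts to be tested, 0 passed (edgeR, with 3 higher at an unadjusted p under 0.05, and 0 of 5 in DESeq2, which gave Csf1r and Irf5 no adjusted p), where 0.188% of all 14396 genes tested passed upward and 0.264% downward. At an unadjusted p under 0.05, 9.98% of all genes were higher. Those 3 members were Irf5 (log2 fold change 1.52, standard error 0.57, edgeR adjusted p = 0.159), Cd86 (1.34, standard error 0.57, adjusted p = 0.206) and Lyz2 (1.11, standard error 0.40, adjusted p = 0.153). Cd68 was the one member with a log2 fold change below 0, at -0.64 (standard error 0.44, edgeR adjusted p = 0.421). For Irf5, Cd86, Lyz2 and Ptafr, 4 of the 7, every AS-bright library was above every WT-bright library, which held for 13.6% of all genes tested. Irf5 had 4, 9 and 7 counts in WT-bright and 18, 16 and 24 in AS-bright. It passed the filter on low counts through the AS-bright libraries alone, so that neither its p nor its lack of overlap counts as support.

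Adgre1, Spi1 and Emilin2 fell below the filter on low counts in the bright cells, and their counts are given without a test. Adgre1 had 3, 1 and 1 counts in WT-bright, at or under a floor of 3 counts per library, and 8, 13 and 7 counts in AS-bright. The pooled counts gave a ratio of AS over WT of 5.48, with an exact binomial 95% interval of 2.09 to 18.2. Spi1 had 4, 2 and 9 counts in WT-bright and 8, 31 and 10 in AS-bright, a ratio of 3.20 (interval 1.76 to 6.14). Emilin2 had 2, 4 and 6 counts in WT-bright and 14, 13 and 9 in AS-bright, a ratio of 2.94 (interval 1.49 to 6.20). These intervals cover counting error alone and not the spread between mice. Spi1 overlapped between the genotypes in CPM, and Adgre1 and Emilin2 did not. Leukocyte markers summed to 89.2 to 141 CPM in WT-bright and 171 to 197 CPM in AS-bright, with Ptprc at 1.995 to 4.11 CPM and 2.77 to 8.09 CPM. With the mean of the leukocyte markers as a covariate, 0 of the 7 members tested in the bright cells passed (edgeR, with 0 at an unadjusted p under 0.05). The log2 fold change of Lyz2 then turned to -0.64 (edgeR adjusted p = 0.536), while those of Irf5 (2.61, adjusted p = 0.303) and Cd86 (0.77, adjusted p = 0.796) stayed above 0.

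Bright over dim addresses how the sorted subpopulations of the same mice differ. Cd68, Clec12a, Lyz2 and Ptafr, the 4 members with enough counts in the WT-bright libraries on their own, were all lower in bright than in dim cells in WT mice, where 11.5% of all 14247 genes tested passed downward and 13.8% upward. Their median log2 fold change was -7.21, beside -0.04 over all genes, and the highest adjusted p was 0.00161 (edgeR). In AS mice these 4 and also Irf5 and Cd86 had enough counts, and all 6 were lower in bright cells, where 26.5% of 14052 genes passed downward and 28.6% upward, with a median of -7.43. The others passed the filter on low counts through the dim libraries alone, so that they had to differ, and are given by their pooled counts with an exact 95% interval for counting error. No bright library reached the level of any dim library for any member in either genotype.

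In WT mice, Ptafr was 350.4-fold lower (log2 fold change -8.45, standard error 0.44). Lyz2 went from 3192 ± 879 CPM (SD, n = 3) in WT-dim to 21.4 ± 10.9 CPM in WT-bright (log2 fold change -7.15, standard error 0.54). By pooled counts, Csf1r (27 counts over the 3 WT-bright libraries) was 218-fold lower (interval 149.6 to 331), Irf5 (20 counts) 331-fold (214 to 543) and Cd86 (31 counts) 257-fold (181 to 379). Emilin2 (12 counts) was 356-fold lower (interval 204 to 690.04), Spi1 (15 counts) 184-fold (111 to 329.6) and Adgre1 (5 counts) 252-fold (108 to 778). Cd68 differed least, at 14.4 ± 7.83 CPM in WT-bright against 178 ± 121 CPM in WT-dim, 12.1-fold lower (log2 fold change -3.60, standard error 0.56). Ptprc, which is no member, was 282-fold lower (log2 fold change -8.14, standard error 0.40).

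In AS mice, Ptafr was 217-fold lower (log2 fold change -7.76, standard error 0.24) and Irf5 190.4-fold lower (-7.57, standard error 0.29). Csf1r went from 340.1 ± 46.4 CPM in AS-dim to 0.880 ± 0.270 CPM in AS-bright, and by pooled counts (38 in AS-bright) it was 399-fold lower (interval 291 to 565). On the same scale Emilin2 (36 counts in AS-bright) was 303-fold lower (interval 219 to 433), Adgre1 (28 counts) 107-fold (73.6 to 161) and Spi1 (49 counts) 107-fold (80.5 to 144). Cd68 was again the member with the smallest difference, 24.2-fold lower (-4.60, standard error 0.30), and had 7.13 to 13.6 CPM in AS-bright. Per length, Lyz2 (16.3 ± 8.30 RPKM in WT-bright, 37.4 ± 8.19 RPKM in AS-bright) and Cd68 (11.4 ± 6.23 and 7.54 ± 2.88 RPKM) were the only members above 2 RPKM in the bright cells. Endothelial markers went the other way, with 14 of 14 higher in bright cells in each genotype. Only 13 of the 14 had enough counts to be tested in the dim libraries on their own. The remaining gene passed the filter on low counts through the bright libraries, so that it had to differ.

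**Figure D5:**
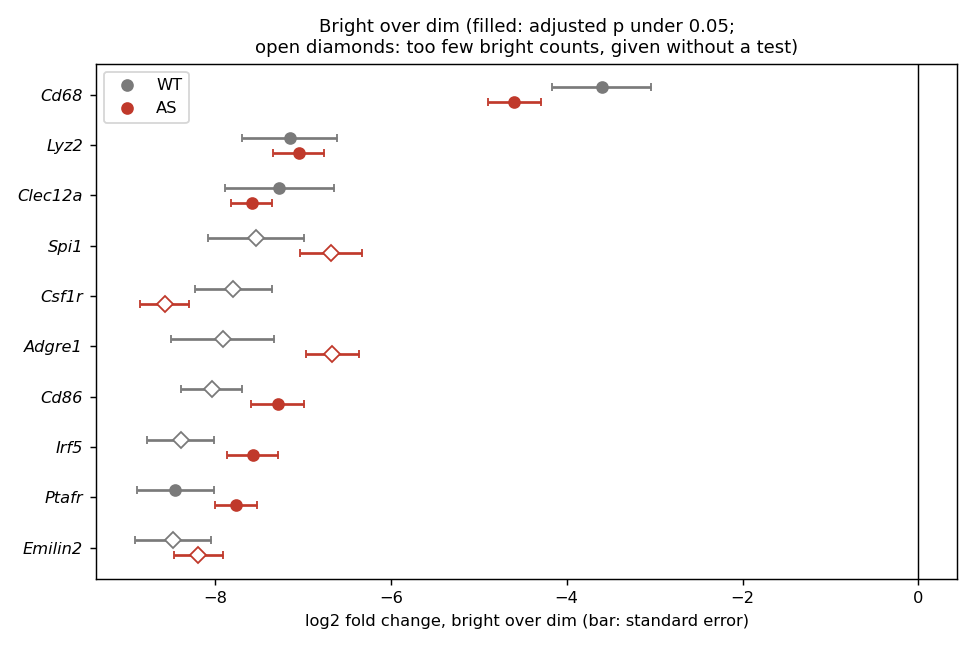
Log2 fold change of bright over dim (horizontal, with the standard error as a bar) for each member in WT (grey) and AS (red) mice, as a filled circle where the adjusted p was under 0.05 and as an open diamond, given without a test, where the bright libraries had too few counts. The circles, 4 in WT and 6 in AS, are all filled and lie below 0, and Cd68 lies nearest to 0 in both genotypes.

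Whether the genotype effect differed between the subpopulations was tested in a fit of all 12 libraries, as the AS over WT log2 fold change in bright cells minus that in dim cells. None of the 7 members with enough counts over the 6 bright libraries passed (edgeR, with 0 at an unadjusted p under 0.05, and 0 in DESeq2), where 2.96% of all 15084 genes tested passed upward and 0.815% downward. The differences ran from -0.96 for Cd68 (standard error 0.66, edgeR adjusted p = 0.487) to 0.88 for Irf5 (standard error 0.53, adjusted p = 0.406), and Ptafr had the lowest p (0.75, standard error 0.41, adjusted p = 0.353). For Csf1r the difference was -0.72 (standard error 0.60, edgeR adjusted p = 0.57) and for Lyz2 it was 0.17 (standard error 0.50, adjusted p = 0.896). The standard errors were 0.41 to 0.66, and a p that misses the threshold does not show equal effects. Adgre1, Spi1 and Emilin2 entered this fit through the dim libraries, did not pass either, and their differences rest on the few bright counts given above. Irf5 passed the filter over the bright libraries through AS-bright alone. In WT-bright it had 4, 9 and 7 counts and Csf1r had 9, 14 and 4, so that the differences of these genes rest on few counts too.

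Over the 12 libraries, the level of Csf1r on the log2(CPM + 1) scale went most closely with that of Vav1 (r = 0.998), Fam105a (0.998), Bin2 (0.998), Csf2rb2 (0.997) and Ctss (0.997), among the 15758 genes in both tables that are no members. Vav1 is a guanine nucleotide exchange factor of blood cells, Bin2 a membrane-bending protein of leukocytes, Csf2rb2 a receptor chain of IL-3 and Ctss a lysosomal protease. The other 9 members had r from 0.970 for Cd68 to 0.998 for Emilin2. All points share the gap between dim and bright libraries, and 669 genes had an r above 0.95.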

How the data were processed

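The authors aligned the reads with STAR (2.6.0c in the submitters' processing notes) to GRCm38.p5 with Gencode M16, counted them per gene and deposited these counts, not normalized, in 1 table per subpopulation. The deposited RPKM values, which the authors made from these counts, rest on a gene length that was in the median 1.48 times the merged exon length, so RPKM was recomputed here with the latter. The deposited log2 fold changes, logCPM, scores (a likelihood ratio statistic), p-values and FDR are the authors' own comparisons and were not used.

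Counts without the 92 ERCC spike-ins were filtered by filterByExpr, normalized by TMM and fitted with edgeR 4.0.16 (R 4.3.3, the quasi-likelihood fit of its version 4). P-values were adjusted by Benjamini-Hochberg over every gene of a fit, at a threshold of 0.05. The version 4 fit was taken after the result of the version 3 fit had been seen, to match an earlier processing of these data. Each comparison used only its groups, and the interaction all 12 libraries, on genes in both tables. AS over WT in each subpopulation, bright over dim in each genotype and the interaction made 5 comparisons. The scripts were tested on simulated data.

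The members and lists were chosen with earlier results of these data known. Maf and Mertk were named outside the rule that follows, as the resident macrophage genes lower at an unadjusted p under 0.05 in the dim cells. Named were all members, from each list the 3 genes with the smallest p in AS over WT in the dim cells and the 2 with the highest level there (the text gives part of these; some results of the CSF receptor axis and myeloid transcription factor lists, their counts included, are not reported here), the 5 genes most like Csf1r, Col4a5 and Tek, and paralogs or overlapping genes. A mouse number in the sample descriptions pairs each dim with a bright library, whose deviations from the group mean correlated by 0.102 to 0.274 within WT mice and by 0.0798 to 0.385 within AS mice. The replicates are separate mice, and pairs of them differed by 29.5 to 104 times the sampling noise of their counts (chi-square over its degrees of freedom). Alternatives were RLE normalization, library sizes alone, no filter, DESeq2 1.42.0, a replicate block, all 12 libraries in one fit, the mean of the proximal tubule or leukocyte markers as a covariate, the version 3 fit and each library left out.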

Additional observations from a re-analysis of the deposited data

How the results depend on the processing

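Among members with enough bright counts, those passing in bright over dim (4 of 4 in WT, 6 of 6 in AS), in the interaction (0 of 7) and in AS over WT in bright cells (0 of 7, but 0 of 5 with DESeq2, which gave Csf1r and Irf5 no adjusted p) were as many under every alternative run. In the dim cells 4 members passed also with RLE normalization, library sizes alone, no filter, DESeq2 and all 12 libraries in one fit. There, 3 passed with a replicate block and 3 with the version 3 fit, whose result was seen before the version 4 fit was taken, 0 with the proximal tubule covariate, 0 with the leukocyte covariate, and 0 to 6 with each library left out. A covariate takes 1 of 4 residual degrees of freedom from a fit of 6 libraries. The replicate block over AS and WT joined mice that share no more than a number (mean correlation of deviations -0.05 in the dim and -0.04 in the bright cells). With the mouse as a block, no call of these members in bright over dim changed.

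Over all genes, 1263 passed in the dim cells, but 2213 with DESeq2, 494 with the replicate block, 582 with the version 3 fit, 2106 with all 12 libraries, 1 with the proximal tubule and 74 with the leukocyte covariate, and 0 (without the first AS mouse) to 1825 (without the third WT mouse) with each library left out. In the bright cells 65 passed, but 39 without a filter, 1117 with DESeq2, 16 with the replicate block, 0 with the version 3 fit, 139 with all 12 libraries, 0 with the proximal tubule and 1 with the leukocyte covariate, and 0 (without WT mouse 3, AS mouse 1 or AS mouse 3) to 281 (without the second WT mouse) with each library left out. For the interaction 569 passed, but 1186 with DESeq2, 877 with the mouse as a replicate block, and 252 (without the first AS-bright library) to 857 (without the third WT-dim library) with each library left out. The cause of these moves was not tested.

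Log2 fold changes that turned, none past the threshold, were in the dim cells those of Cd68 (-0.78 with the proximal tubule and -0.86 with the leukocyte covariate) and Ptafr (-0.33 and -0.31). In the bright cells the leukocyte covariate turned Cd68 (0.55), Clec12a (-1.31), Lyz2 (-0.64) and Ptafr (-0.30). In the interaction, leaving out a library moved Spi1 over -0.013 to 1.61, Clec12a over -0.64 to 0.63, Lyz2 over -0.19 to 0.46 and Emilin2 over -0.00074 to 0.74.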
